A study of Mus musculus with 15 samples.

Results

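The 3 arrays of primary mouse chondrocytes treated with UO126, an inhibitor of the kinases MEK1 and MEK2 that is usually written with a zero, were compared with the 3 arrays treated with the vehicle DMSO, 6 of the 15 arrays of the series. Every probe set whose mean log2 signal reached log2 of 50 in either treatment was included, which gave 34612 of the 45037 probe sets that are not array controls. The chondrocytes came from hind limb cartilage of CD1 mice at embryonic day 15.5, were grown as primary monolayers, and carried no genetic change that the labels name. All groups were in monolayer culture with a treatment of 24 h by the sample labels, whereas the design text of the series gives 2 h, and the dose of UO126 is not given in the sources used here. Besides UO126 and DMSO, used as the 2 groups of the comparison, the series holds 3 arrays each for LY294002, a PI3K inhibitor labelled LY, for SB202190, labelled SB90 and listed in the design text with UO126 among the MEK/ERK inhibitors although it is best known as a p38 inhibitor, and for Trichostatin A, a histone deacetylase inhibitor. The series text gives 3 biological replicates per treatment, the methods describe independent experiments for DMSO and LY294002, and how the UO126 cultures were matched to them, or whether embryos were pooled, is not given in the sources used here.

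MEK1 and MEK2 phosphorylate and activate the kinases ERK1 and ERK2, the last step of the cascade that runs from receptor tyrosine kinases through RAS and RAF. Active ERK phosphorylates ETS transcription factors and raises the transcription of its own inhibitors, the dual-specificity phosphatases, the Sprouty and Spred proteins and other feedback genes, and of immediate early genes such as Fos and Egr1. In the growth plate, FGF receptor 3 signals through this cascade, and chondrocytes pass from proliferation, in a matrix of collagen II and aggrecan, to hypertrophy, marked by collagen X.

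Array medians lay between 6.90 and 6.998 on the log2 scale. Correlation over the probe sets tested was 0.992 to 0.994 between the UO126 arrays and 0.989 to 0.994 between the DMSO arrays, with DMSO array 1 the farthest from the others. The deviations of same-numbered UO126 and DMSO arrays from their treatment means correlated at 0.718, 0.540 and 0.328 across these probe sets for numbers 1, 2 and 3. Between arrays of different numbers the correlation was -0.594 to 0.277, the highest for UO126 array 2 with DMSO array 3. The main fit has no block. Because of these correlations a second fit took the number as a block, and its values are given where they change a call. The chondrocyte label was matched by the cartilage markers, with Col2a1, the gene of the main cartilage collagen, at 14.43, 14.40 and 14.42 in the UO126 arrays and 14.36, 14.29 and 14.30 in the DMSO arrays. Of 11 endothelial markers, 7 passed the signal limit and Pecam1, Cdh5, Tie1 and Vwf were below it in both groups, with a summed linear signal over the list of 2329 to 2484 in UO126 and 2329 to 2575 in DMSO. Of 16 macrophage and leukocyte markers, 14 passed and Ptprc and Aif1 were below it. Skeletal muscle markers were present at a summed linear signal of 4616 to 9514 over UO126 arrays and 3626 to 7789 over DMSO arrays. In a culture of this kind, fewer cells of a type and less RNA per cell cannot be told apart.

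A small share of the probe sets tested passed the test between UO126 and DMSO, and mostly with differences of less than 2-fold. An unadjusted p below 0.05 in limma was found for 3390 probe sets. With an adjusted p below 0.05 in limma, 393 probe sets were higher in UO126 (1.14% of those tested) and 274 were lower (0.792%), representing 310 and 195 named genes. Either direction together took 1.93% of the probe sets. At 666 of these 667 the 3 UO126 signals lay beyond all 3 DMSO signals. This largely follows from their choice by a small adjusted p on the same arrays. How often the groups were separate over all probe sets tested was not counted. At least 2-fold differences were found for 28 of the higher probe sets and 42 of the lower ones, naming 19 and 23 genes. Among called probe sets of 1 named gene whose groups did not overlap, the difference was most negative for the neuronal pentraxin Nptx1, 3.71-fold lower with UO126 signals close to the signal limit, and most positive for the imprinted gene Nnat, neuronatin, 2.96-fold higher. The median difference over all probe sets tested was 0.00159, and the median standard error was 0.104 against a median absolute difference of 0.0777. With the replicate number as a block, 848 probe sets were higher (2.45%) and 659 lower (1.9%), and these included all 667. The 6 arrays fitted alone gave 169 higher and 149 lower. The number higher was 196 without UO126 array 3, 230 without DMSO array 2 and 234 without DMSO array 3, and the number lower was 156 without UO126 array 2 and 174 without UO126 array 3. The counts of list members called are to be read against 1.14% higher and 0.792% lower over all probe sets, or 2.45% and 1.9% with the block. Those shares include dim probe sets and probe sets without a gene symbol, whereas a list gene is read by its brightest probe set. The lists were also chosen with earlier results of these data known, so a count above these shares is a description.

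**Figure D1:**
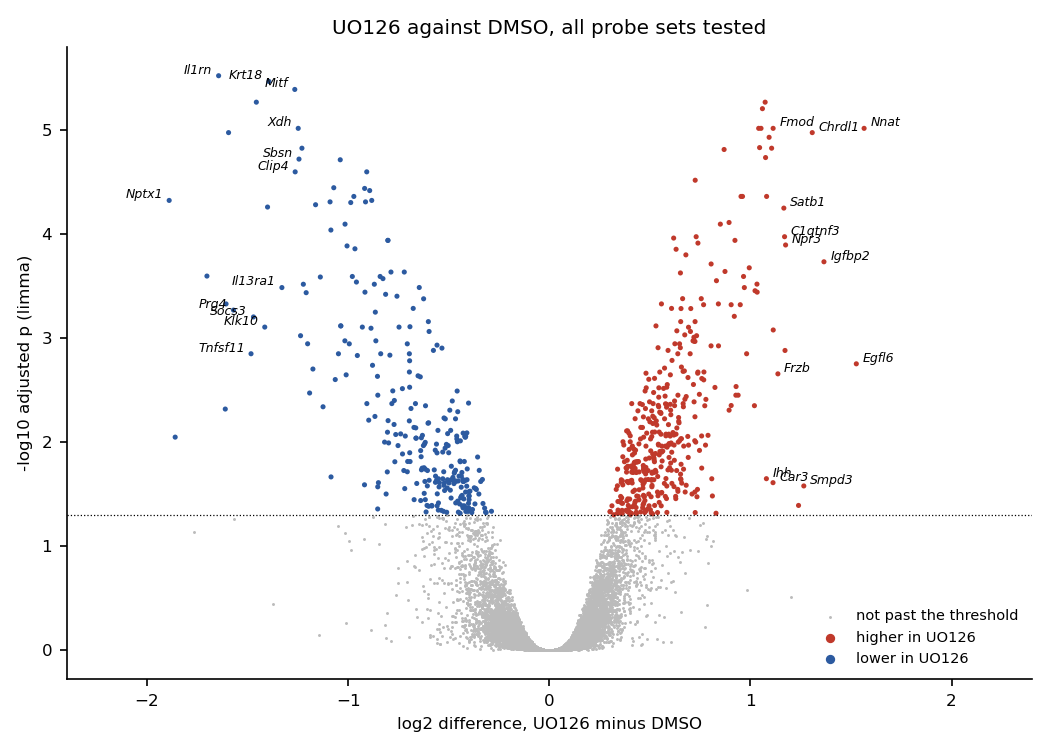
Each point is 1 of the 34612 probe sets tested, with the log2 difference between the UO126 and DMSO means on the horizontal axis and the negative log10 of the adjusted p from limma on the vertical axis. Red and blue points passed an adjusted p of 0.05 (dotted line), and names mark the 12 genes that rose most and the 12 that fell most. Most coloured points lie between differences of -1 and 1.

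The ERK feedback and ETS genes lay mostly below their DMSO level. Of 18 genes on the list, 17 were measured and tested, 3 passed the test as lower (Errfi1, Etv5 and Phlda1), none as higher, and 13 of the 17 had a negative difference, with a median of -0.33 against 0.00159 over all probe sets. The share of all probe sets tested that was called lower is the 0.792% given above. Signals of Errfi1, which encodes the EGF receptor inhibitor MIG-6, were 9.76, 9.46 and 9.57 in the UO126 arrays and 10.84, 10.58 and 10.75 in the DMSO arrays. All UO126 arrays were below all DMSO arrays, a fall of 2.18-fold (log2 difference -1.13 ± 0.20 SE, n = 3 per group, adjusted p = 0.00458 by limma). The signals of Etv5, an ETS transcription factor, were 8.37, 8.42 and 8.46 in the UO126 arrays and 9.21, 9.03 and 8.92 in the DMSO arrays, without overlap, and differed by -0.64 ± 0.13 (adjusted p = 0.0138). For Phlda1, a pleckstrin homology domain gene induced by ERK signaling, they were 10.04, 10.02 and 9.99 in the UO126 arrays and 10.63, 10.50 and 10.60 in the DMSO arrays, again without overlap, and differed by -0.56 ± 0.11 (adjusted p = 0.0127). The call for Etv5 was lost without any 1 of UO126 array 1 and DMSO array 1 (0.0531 to 0.0555) and that for Phlda1 without any 1 of UO126 array 3 and DMSO array 3 (0.0562 to 0.0638), whereas that for Errfi1 was held without any single array.

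Among the direct inhibitors of the cascade, Dusp6, the phosphatase that inactivates ERK in the cytoplasm, was at 9.19, 9.43 and 9.02 in the UO126 arrays and 10.37, 10.17 and 10.07 in the DMSO arrays. The groups did not overlap and the difference of -0.99 ± 0.28 was close to 2-fold, but it passed the test only with the replicate block (adjusted p = 0.00101 against 0.0896 without it). Spry2, a Sprouty protein that blocks RAS activation, was at 8.11, 7.75 and 7.57 in the UO126 arrays and 8.51, 8.55 and 8.23 in the DMSO arrays, also without overlap, and its difference of -0.62 ± 0.23 passed only with the block (0.0111 against 0.267). Etv4, an ETS factor related to Etv5, differed by -0.33 ± 0.11 and was likewise called only with the block (0.0162 against 0.158), which brought the number lower to 6 of 17. The other ERK phosphatases of the list, Dusp5 and Dusp4, differed by -0.49 ± 0.28 (adjusted p = 0.658) and -0.39 ± 0.14 (adjusted p = 0.234). The Spred genes, whose products hold RAF inactive, differed by -0.18 ± 0.11 for Spred1, -0.27 ± 0.10 for Spred2 and -0.35 ± 0.13 for Spred3, none past the test. The remaining Sprouty genes were not called and had differences of 0.16 ± 0.09 for Spry1, 0.07 ± 0.12 for Spry3 and -0.13 ± 0.12 for Spry4. Nor did the FGF signaling inhibitor Il17rd (0.17 ± 0.11), the cytokine Lif (0.07 ± 0.23) or cyclin D1, Ccnd1 (-0.11 ± 0.10, 95% interval -0.32 to 0.09), pass the test.

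**Figure D2:**
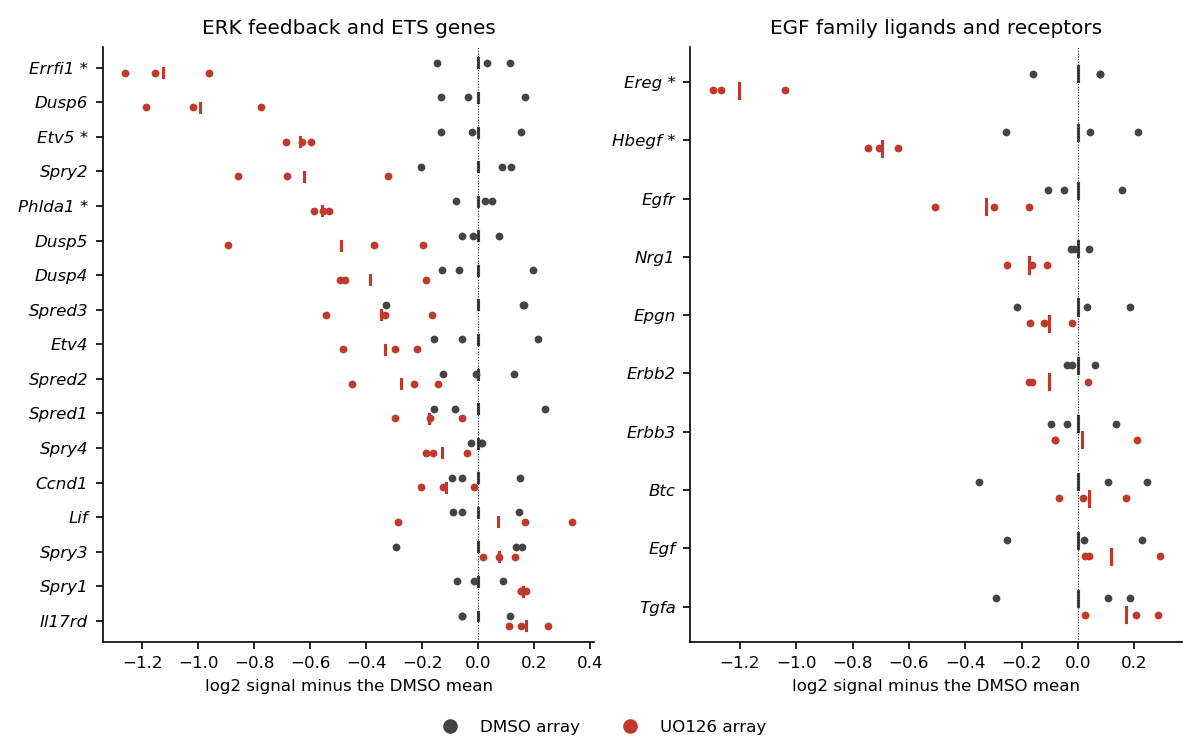
Each dot is 1 array, plotted on the horizontal axis as its log2 signal minus the mean of the 3 DMSO arrays, and vertical ticks are group means; red is UO126 and grey DMSO, 3 arrays each. Genes are ordered by their difference and an asterisk marks those past an adjusted p of 0.05. Errfi1, Dusp6 and Ereg have all UO126 arrays well to the left of all DMSO arrays, while Il17rd and Tgfa lie on the other side.

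The sequences before the start sites of the called feedback genes are shown because ERK acts on transcription through factors with known short motifs. They are the 250 bases before a start in the RefSeq promoter table of build GRCm38.p6, which held 2 starts each for Errfi1 and Etv5 and no entry matched for Phlda1. Both strands were searched for GGAA, the core of ETS sites, TGANTCA and TGACGTCA, the AP-1 and CRE motifs, the CArG box of serum response factor, and GCGTG, the core of aryl hydrocarbon receptor sites, with overlaps between motifs allowed. Capitals mark the motif, of those present, that the smallest share of promoters holds. The second start of each gene is printed, chosen after the search because it held more of these motifs. At the first start, Errfi1 had 2 copies of GGAA and none of the other motifs, and Etv5 had none of them.
Errfi1, second start, chr4:150854820-150855069, plus strand: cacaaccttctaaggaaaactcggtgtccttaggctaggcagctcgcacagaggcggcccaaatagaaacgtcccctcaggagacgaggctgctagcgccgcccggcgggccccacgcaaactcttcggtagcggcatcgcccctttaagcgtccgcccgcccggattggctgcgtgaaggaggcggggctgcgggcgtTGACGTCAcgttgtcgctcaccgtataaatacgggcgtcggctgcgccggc
Etv5, second start, chr16:22438369-22438618, minus strand: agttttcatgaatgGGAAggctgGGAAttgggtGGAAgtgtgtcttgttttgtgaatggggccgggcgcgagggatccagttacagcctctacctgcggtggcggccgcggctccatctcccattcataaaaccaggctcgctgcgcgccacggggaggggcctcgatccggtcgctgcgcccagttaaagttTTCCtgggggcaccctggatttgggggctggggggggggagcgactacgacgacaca
The Errfi1 window held 1 TGACGTCA, 51 bases before the start, a motif present in 1.55% of the 32851 promoters of the table, and also 2 copies of GCGTG. The Etv5 window held 4 copies of GGAA, a motif found at least once in 93.4% of promoters. A match is a description of the letters only.

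Among genes of the EGF family, 2 ligands fell. Of 12 genes of the family on the list, 10 were tested and 2 were lower, the ligands Ereg and Hbegf, with no gene higher (0.792% lower over all probe sets). Ereg, epiregulin, was at 8.78, 8.56 and 8.53 in the UO126 arrays and 9.91, 9.67 and 9.91 in the DMSO arrays. All UO126 arrays lay below all DMSO arrays, a fall of 2.3-fold (log2 difference -1.20 ± 0.18, adjusted p = 0.00114). Signals of Hbegf, the heparin-binding EGF-like ligand, were 8.14, 8.10 and 8.20 in the UO126 arrays and 8.88, 8.59 and 9.06 in the DMSO arrays, without overlap, and fell 1.62-fold (-0.70 ± 0.13, adjusted p = 0.00626). Both calls held without any single array. The receptor Egfr differed by -0.33 ± 0.11 (adjusted p = 0.235), Erbb2 by -0.10 ± 0.10 and Erbb3 by 0.02 ± 0.10. Of the other ligands, Nrg1, Epgn, Btc, Egf and Tgfa had differences of -0.17 ± 0.09, -0.10 ± 0.14, 0.04 ± 0.16, 0.12 ± 0.12 and 0.17 ± 0.12, with adjusted p from 0.564 for Nrg1 to 0.991 for Btc.

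Immediate early genes lay on both sides of their DMSO level. All 28 were tested, 1 was lower and 1 higher, against 0.792% and 1.14% over all probe sets, 15 had a positive difference, and the median was 0.00907, which turned negative under several alternatives (-0.0567 to 0.0864 over those run). With the block 4 were lower and 1 higher, against 1.9% and 2.45%. Fosl1, which encodes the AP-1 subunit FRA-1, was at 8.48, 8.57 and 8.57 in the UO126 arrays and 9.32, 9.25 and 9.49 in the DMSO arrays, a fall of 1.76-fold (-0.81 ± 0.11, adjusted p = 0.000381) that held without any single array. Klf2, a Kruppel-like transcription factor, was at 10.04, 10.16 and 10.02 in the UO126 arrays and 9.24, 9.09 and 9.21 in the DMSO arrays, all UO126 arrays above all DMSO arrays, and rose 1.86-fold (0.89 ± 0.16, adjusted p = 0.00494). Egr1, Junb, Klf10 and Fos, transcription factors of the list, are named after their values were seen. Egr1 was at 11.60, 11.69 and 10.04 in the UO126 arrays and 12.15, 12.15 and 11.69 in the DMSO arrays, where array 3 was the lowest of each group and the groups met at 11.69. It differed by -0.89 ± 0.49 and Junb by -0.81 ± 0.35, called only with the replicate block (adjusted p = 0.00777 and 0.00995, against 0.633 and 0.442 without it). Klf10 differed by -0.58 ± 0.15 and was the other gene called lower with the block (0.00387 against 0.0687). Fos differed by -0.28 ± 0.72 and was not called with the block either (0.746).

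The components of the cascade and the genes of DNA replication and mitosis gave no call in either fit. None of the 20 ERK pathway kinases and adaptors tested passed in either direction by limma (2 at an unadjusted p below 0.05), with Mknk1 (0.28 ± 0.10) and Pea15a (0.27 ± 0.09) farthest from DMSO. None of the 8 other MAP kinase phosphatases passed (2 unadjusted), and Dusp1, which acts mainly on p38 and JNK, was at 11.34, 11.23 and 10.37 in the UO126 arrays and 10.66, 10.42 and 10.62 in the DMSO arrays (difference 0.42 ± 0.31, 95% interval -0.24 to 1.07). Of 23 DNA replication and S phase genes, 22 had a negative difference (median -0.11) and of 23 mitosis genes all 23 did (median -0.12), but 0 passed in either list, with or without the block, and 2 and 0 had an unadjusted p below 0.05. The largest were Tyms (-0.40 ± 0.15), Cdt1 (-0.35 ± 0.14), Bub1 (-0.22 ± 0.17) and Birc5 (-0.22 ± 0.13). All 20 ribosome biogenesis genes were likewise on the negative side (median -0.16), 0 passed against 3 unadjusted, and 2 were called with the block, Dkc1 among them (-0.36 ± 0.11, adjusted p = 0.0217 against 0.155). No member of the D cyclin and CDK inhibitor list (14 tested, 3 unadjusted) or the BCL2 family (14 tested, 1 unadjusted) passed without the block. With the block, the CDK inhibitor Cdkn1c was called higher (0.49 ± 0.13, 0.0318 against 0.0656), and the CDK inhibitor Cdkn2b (-0.45 ± 0.15, 0.00927 against 0.184) and the BCL2 gene Bid (-0.51 ± 0.13, 0.00519 against 0.0571) lower.

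Cartilage matrix genes lay mostly above their DMSO level, while Prg4 and Cytl1 fell. Of 27 genes on the list, all tested, 8 were higher and 2 lower, 24 had a positive difference, and the median was 0.43. The share of probe sets called higher over the whole array was the 1.14% given above. Fmod, fibromodulin, a small proteoglycan that binds collagen fibrils, was at 11.91, 11.93 and 12.20 in the UO126 arrays and 10.95, 11.08 and 11.03 in the DMSO arrays and rose 1.99-fold (0.99 ± 0.12, adjusted p = 0.000212), and the gene's 5 other probe sets were also called higher. Col9a2, a chain of collagen IX, was at 9.98, 10.65 and 10.26 in the UO126 arrays and 9.24, 9.31 and 9.52 in the DMSO arrays and rose 1.92-fold (0.94 ± 0.16, adjusted p = 0.00355). The groups were separate for both genes. In the opposite direction, Prg4, the lubricin of the joint surface, was at 7.90, 7.88 and 7.52 in the UO126 arrays and 9.42, 9.30 and 9.29 in the DMSO arrays, a fall of 2.97-fold (-1.57 ± 0.21, adjusted p = 0.000541). Cytl1, a cytokine-like protein secreted by chondrocytes, was at 10.39, 10.84 and 11.16 in the UO126 arrays and 11.80, 11.80 and 11.83 in the DMSO arrays and fell 2.01-fold (-1.01 ± 0.16, adjusted p = 0.00226). Its DMSO arrays spanned 0.028 and its UO126 arrays 0.768 on the log2 scale. These 4 calls held without any single array.

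The other matrix genes called were named after their values were seen. Fgfr3, the FGF receptor of proliferating chondrocytes, rose by 0.72 ± 0.12 on the log2 scale (adjusted p = 0.00411) and Acan, aggrecan, by 0.73 ± 0.14 (adjusted p = 0.010). Col9a3 rose by 0.73 ± 0.18 (adjusted p = 0.0475), Matn1, matrilin 1, by 0.66 ± 0.15 (adjusted p = 0.0248), Wwp2, the gene that hosts a chondrocyte microRNA, by 0.41 ± 0.08 (adjusted p = 0.0109) and Epyc, epiphycan, by 0.39 ± 0.10 (adjusted p = 0.0466). The calls were lost for Acan without any 1 of UO126 array 3 and DMSO array 2 (0.0531 to 0.0699), for Matn1 without any 1 of UO126 array 1, UO126 array 2, UO126 array 3, DMSO array 2 and DMSO array 3 (0.0643 to 0.119), for Wwp2 without any 1 of UO126 array 1, UO126 array 3 and DMSO array 3 (0.0519 to 0.0682), for Epyc without any 1 of UO126 array 1, UO126 array 2, UO126 array 3, DMSO array 2 and DMSO array 3 (0.0531 to 0.206) and for Col9a3 without any 1 of the 6 arrays (0.0772 to 0.227). The number of list genes called higher, which may include genes not called in the main fit, was 5 without UO126 array 1 or 2 and 3 without UO126 array 3. It was 4 without DMSO array 2 or 3, while the block gave 15. Those added by the block included Snorc (0.80 ± 0.23, 9.62e-06 against 0.10) and Col11a2 (0.81 ± 0.23, 0.000294 against 0.0899), named after their values were seen. Col2a1 itself differed by 0.10 ± 0.08 (95% interval -0.07 to 0.26), but its signals lay at the top of the table, whose highest value was 14.4, so the interval does not show that it stayed level. The transcription factor Sox9 differed by 0.07 ± 0.15 (-0.25 to 0.39), Sox5 by 0.07 ± 0.10 and Sox6 by 0.15 ± 0.09, none past the test.

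**Figure D3:**
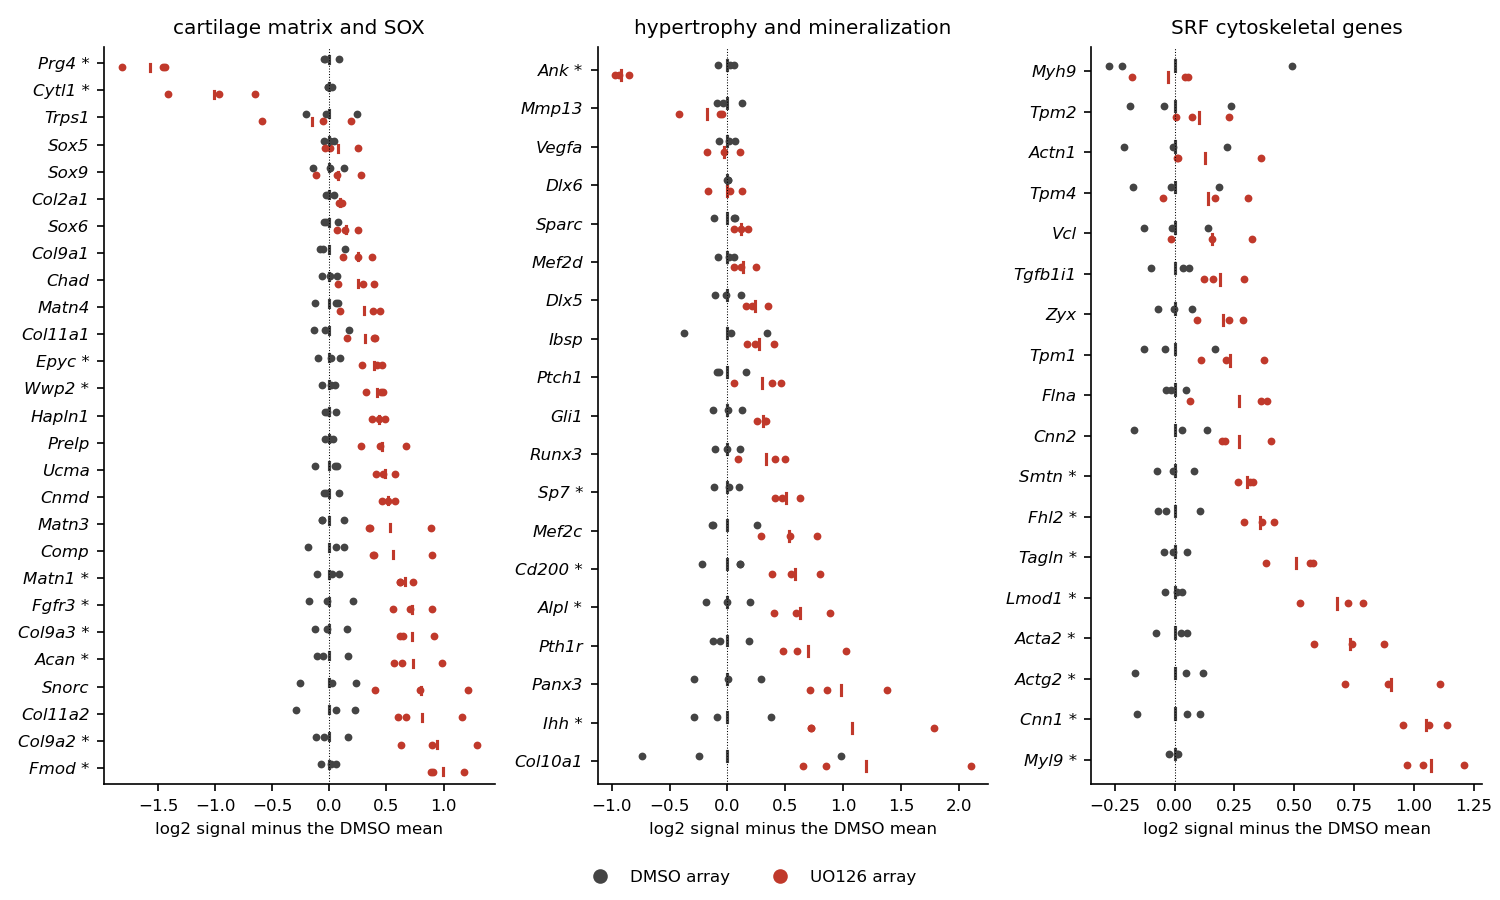
Each dot is 1 array, as its log2 signal minus the mean of the 3 DMSO arrays (horizontal axis), with group means as ticks, red for UO126 and grey for DMSO, and an asterisk for genes past an adjusted p of 0.05. The 3 panels hold the cartilage matrix, hypertrophy and serum response factor lists. Col10a1 has widely spread arrays in both groups, whereas Myl9 and Cnn1 have tight groups near 0 and 1.

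Genes of hypertrophy and mineralization lay mostly above their DMSO level, with wide spread between arrays. Of 24 genes on the list, 19 were tested, 4 were higher and 1 lower (1.14% and 0.792% over all probe sets), and the median difference was 0.30. Ihh, Indian hedgehog, the signal of prehypertrophic chondrocytes, was at 8.16, 8.16 and 9.22 in the UO126 arrays and 7.14, 7.34 and 7.81 in the DMSO arrays. Array 3 was the highest of each group, and all UO126 arrays exceeded all DMSO arrays, a rise of 2.11-fold (1.08 ± 0.24, adjusted p = 0.0225). Alpl, tissue-nonspecific alkaline phosphatase, rose by 0.63 ± 0.15 (adjusted p = 0.0332), the membrane glycoprotein Cd200 by 0.58 ± 0.13 (adjusted p = 0.0224) and Sp7, osterix, by 0.50 ± 0.12 (adjusted p = 0.0447). Ank, the pyrophosphate exporter that restrains mineralization, was at 10.05, 10.02 and 10.14 in the UO126 arrays and 11.05, 11.01 and 10.91 in the DMSO arrays, without overlap, and fell by 0.92 ± 0.09 (adjusted p = 3.67e-05). The call for Ihh was lost without any 1 of UO126 array 3, DMSO array 1 and DMSO array 2 (0.0766 to 0.0903), for Alpl without any 1 of UO126 array 2, UO126 array 3, DMSO array 1 and DMSO array 2 (0.0816 to 0.197), for Cd200 without any 1 of UO126 array 1, UO126 array 3 and DMSO array 2 (0.0592 to 0.143) and for Sp7 without any 1 of the 6 arrays (0.0691 to 0.214). Counting any gene of the list, called in the main fit or not, 2 were higher without UO126 array 1 or DMSO array 1. None, 0, was higher without UO126 array 3 or DMSO array 2, against 8 with the block.

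Col10a1, the hypertrophic collagen, is named for its pattern across pairs. It was at 11.02, 11.22 and 12.47 in the UO126 arrays and 9.63, 10.13 and 11.36 in the DMSO arrays, so that array 3 was high in both groups and the groups overlapped. The UO126 array was the higher one of each same-numbered pair, the difference was 1.20 ± 0.46, and the adjusted p was 0.308 without and 2.47e-06 with the block. The channel gene Panx3 (0.98 ± 0.36, 0.00924 with the block against 0.266) and the parathyroid hormone receptor gene Pth1r (0.70 ± 0.20, 0.000274 against 0.11) were also called only with the block, and were named after their values were seen. Mmp13, the collagenase of terminal hypertrophy, differed by -0.18 ± 0.30 and the osteoblast gene Ibsp by 0.27 ± 0.32, not called in either fit. Osteoblast markers, a list that shares Sp7, Alpl and Ibsp with this one, summed to a linear signal of 19340 to 21154 in UO126 and 15076 to 18966 in DMSO, with 2 of 7 higher (1.14% over all probe sets). Their part in these values was not tested.

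Cytoskeletal targets of serum response factor lay almost all above their DMSO level. All 18 genes on the list were tested, 8 were higher and 0 lower (1.14% and 0.792% over all probe sets), 17 had a positive difference, and the median was 0.27. Myl9, the regulatory light chain of smooth muscle and non-muscle myosin, was at 12.14, 11.97 and 11.90 in the UO126 arrays and 10.95, 10.94 and 10.91 in the DMSO arrays. All UO126 arrays lay above the DMSO arrays, which spanned 0.0367, a rise of 2.1-fold (1.07 ± 0.08, adjusted p = 5.45e-06). Cnn1, calponin, was at 8.85, 8.92 and 8.74 in the UO126 arrays and 7.63, 7.83 and 7.89 in the DMSO arrays and rose 2.07-fold (1.05 ± 0.09, adjusted p = 9.72e-06). Actg2, smooth muscle gamma actin, rose by 0.90 ± 0.12 (adjusted p = 0.00048) and Acta2, smooth muscle alpha actin, by 0.73 ± 0.11 (adjusted p = 0.000952). The remaining called members, listed after their values were seen, were Lmod1, leiomodin (0.68 ± 0.08, adjusted p = 0.000159), Tagln, transgelin (0.51 ± 0.09, adjusted p = 0.00501), Fhl2 (0.36 ± 0.08, adjusted p = 0.023) and Smtn, smoothelin (0.30 ± 0.07, adjusted p = 0.0465). Single arrays left 6 or 7 of the 8, since Fhl2 was lost without any 1 of UO126 array 1, UO126 array 3, DMSO array 1 and DMSO array 2 (0.0693 to 0.109) and Smtn without any 1 of the 6 arrays (0.0614 to 0.163). The block gave the same number, 8.

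Skeletal muscle genes share part of this regulation, and 0 of their 18 tested markers passed by limma, against 3 at an unadjusted p below 0.05, while 14 of the 18 had a positive difference and the median was 0.20. Acta1, skeletal actin, was at 10.85, 10.26 and 9.59 in the UO126 arrays and 10.06, 9.48 and 8.80 in the DMSO arrays and differed by 0.78 ± 0.32 (adjusted p = 0.365, 0.00491 with the block). The muscle determination factors Myod1 and Myog differed by 0.02 ± 0.19 and -0.04 ± 0.28. The block called 3 muscle markers higher, Acta1 and Tnnc2 among them (0.77 ± 0.41, 0.0116). The part of muscle cells in the rise of the serum response factor list was not tested. The windows before the start of Myl9 and of the second start of Fhl2 are printed, chosen after the search, because of the 7 windows of the 6 called members held by the RefSeq table they and the first start of Fhl2 were the 3 with a CArG box, shown in capitals.
Myl9, chr2:156775214-156775463, plus strand: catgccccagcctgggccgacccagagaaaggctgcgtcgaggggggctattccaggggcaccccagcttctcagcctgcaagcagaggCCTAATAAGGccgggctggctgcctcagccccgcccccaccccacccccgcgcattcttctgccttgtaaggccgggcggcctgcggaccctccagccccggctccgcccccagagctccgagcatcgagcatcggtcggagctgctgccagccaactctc
Fhl2, second start, chr1:43163962-43164211, minus strand: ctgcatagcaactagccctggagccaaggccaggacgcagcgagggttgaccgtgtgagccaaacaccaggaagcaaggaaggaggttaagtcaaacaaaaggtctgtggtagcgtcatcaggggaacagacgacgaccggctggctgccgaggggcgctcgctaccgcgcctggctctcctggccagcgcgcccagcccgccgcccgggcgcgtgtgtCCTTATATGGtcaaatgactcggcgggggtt
The box began 161 bases before the start of Myl9 and 31 bases before that of Fhl2, and 1.47% of the 32851 promoters held one. Acta2, Cnn1, Lmod1 and Smtn had no exact match in these 250 bases. Near matches were not counted, and the Acta2 window holds stretches such as ccctatatgg that miss the pattern by a single base.

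The 12 largest increases among named genes whose groups did not overlap included extracellular antagonists and binding proteins of growth factors. Nnat was at 8.71, 8.51 and 8.76 in the UO126 arrays and 7.40, 6.82 and 7.08 in the DMSO arrays, and rose by 1.57 ± 0.14 (adjusted p = 9.72e-06). Egfl6, an EGF-like matrix protein, was at 8.62, 8.51 and 7.88 in the UO126 arrays and 7.30, 6.52 and 6.62 in the DMSO arrays (1.53 ± 0.24, adjusted p = 0.00177), and Igfbp2, an insulin-like growth factor binding protein, at 9.76, 10.56 and 10.07 in the UO126 arrays and 8.66, 8.96 and 8.68 in the DMSO arrays (1.37 ± 0.16, adjusted p = 0.000186). The BMP antagonist gene Chrdl1 rose by 1.31 ± 0.12 (adjusted p = 1.07e-05) with its 2 other probe sets called too. Next came the neutral sphingomyelinase Smpd3 (1.27 ± 0.28, adjusted p = 0.0264), the natriuretic peptide clearance receptor Npr3 (1.17 ± 0.14, adjusted p = 0.000128), the adipokine-like C1qtnf3 (1.17 ± 0.13, adjusted p = 0.000107) and the chromatin organizer Satb1 (1.17 ± 0.13, adjusted p = 5.67e-05). They were followed by the Wnt antagonist Frzb (1.14 ± 0.18, adjusted p = 0.00221), Fmod by its probe set with the largest increase (1.11 ± 0.10), carbonic anhydrase 3, Car3 (1.11 ± 0.25, adjusted p = 0.0245), and Ihh. One of the 3 other probe sets of Satb1 had the opposite sign and was not called. The call for Smpd3 was lost without any 1 of UO126 array 1, UO126 array 2, UO126 array 3, DMSO array 1 and DMSO array 2 (0.0541 to 0.151) and that for Car3 without any 1 of UO126 array 2, UO126 array 3 and DMSO array 3 (0.0991 to 0.136), beside that for Ihh given above, and the other 9 held without any single array.

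The 12 largest decreases included cytokine signaling genes and secreted regulators. Nptx1 was at 5.85, 5.50 and 5.63 in the UO126 arrays and 7.93, 7.53 and 7.19 in the DMSO arrays, with UO126 arrays 2 and 3 below the signal limit of 5.64, and fell by 1.89 ± 0.20 (adjusted p = 4.78e-05). Il1rn, the antagonist of the interleukin 1 receptor, was at 7.85, 7.88 and 8.05 in the UO126 arrays and 9.55, 9.57 and 9.60 in the DMSO arrays, with DMSO arrays that spanned 0.0536, and fell 3.13-fold (adjusted p = 3.04e-06). Tnfsf11, the osteoclast factor RANKL, was at 6.25, 5.70 and 6.04 in the UO126 arrays and 7.74, 7.05 and 7.65 in the DMSO arrays, where array 2 was the lowest of each group, and differed by -1.48 ± 0.23 (adjusted p = 0.00142). Socs3, a feedback inhibitor of JAK and STAT signaling, was at 9.62, 9.21 and 9.59 in the UO126 arrays and 11.23, 10.89 and 10.72 in the DMSO arrays and fell 2.77-fold (adjusted p = 0.000629), and its 2 other probe sets were also called lower. The interleukin 13 receptor gene Il13ra1 fell by 1.33 ± 0.17 at the probe set with the largest decrease and by 0.92 ± 0.12 at the brightest one. Besides Prg4, the remaining decreases were the kallikrein peptidase Klk10 (-1.41 ± 0.20), keratin 18, Krt18 (-1.39 ± 0.10), the transcription factor Mitf (-1.27 ± 0.09), Clip4, a CAP-Gly domain gene (-1.26 ± 0.12), xanthine dehydrogenase, Xdh (-1.25 ± 0.11), and suprabasin, Sbsn (-1.24 ± 0.12), with adjusted p between 3.45e-06 for Krt18 and 0.000787 for Klk10. None of these 12 calls was lost without a single array.

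Secreted signals changed in both directions. Of 22 chemokine and interleukin genes tested, 3 were lower (Il1rn, Il13ra1 and Cxcl14) and 0 higher, against 0.792% and 1.14% over all probe sets. A negative difference was found for 19, and the median was -0.29. The chemokine Cxcl14 fell by 0.60 ± 0.08 (adjusted p = 0.000697). With the block 7 were lower, against 1.9% over all probe sets. Among them was the neutrophil chemokine Cxcl5, named after its values were seen. It was at 9.58, 8.75 and 8.72 in the UO126 arrays and 11.07, 10.57 and 10.11 in the DMSO arrays (-1.57 ± 0.40, 0.000505 with the block against 0.0543). Macrophage and leukocyte markers, 0 of 14 called by limma (4 at an unadjusted p below 0.05) and 1 lower with the block (Cd14, -0.36 ± 0.09, 0.0139 against 0.0548), summed to 2892 to 3323 in UO126 and 3231 to 4371 in DMSO on the linear scale, and their part in the cytokine values was not tested. Of 37 Wnt genes tested, 7 were higher and 2 lower (median 0.14), against 1.14% and 0.792% over all probe sets. The antagonists Frzb and Sfrp5 rose by 1.08 ± 0.11, at the brightest Frzb probe set, and 0.70 ± 0.11 (adjusted p = 4.38e-05 and 0.00142), whereas the ligand Wnt10a fell by 0.69 ± 0.10 (adjusted p = 0.000781) and the antagonist Wif1 by 0.61 ± 0.15 (adjusted p = 0.0469). The call for Wif1 was lost without any 1 of UO126 array 1, UO126 array 2, UO126 array 3, DMSO array 1 and DMSO array 3 (0.0582 to 0.197). Single arrays left 2 to 5 of the Wnt genes higher, the lowest without DMSO array 3 and the highest without DMSO array 1, and 3 without each of the other 4, and left 1 lower except without DMSO array 2, which left 2.

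In the TGF-beta and BMP list, 4 of 37 genes tested were higher and 3 lower (1.14% and 0.792% over all probe sets), with a median of 0.0693. The BMP antagonist Nog, noggin, was at 7.93, 8.08 and 8.57 in the UO126 arrays and 7.18, 7.22 and 7.40 in the DMSO arrays and rose by 0.93 ± 0.16 (adjusted p = 0.00355), and Gdf10 rose by 0.60 ± 0.13 (adjusted p = 0.0176). Id1, a target of BMP signaling, fell by 0.64 ± 0.13 (adjusted p = 0.0185) and the coreceptor Tgfbr3 by 0.63 ± 0.12 (adjusted p = 0.00863). The call for Gdf10 was lost without any 1 of UO126 array 3, DMSO array 2 and DMSO array 3 (0.0614 to 0.114), for Id1 without any 1 of UO126 array 2, UO126 array 3, DMSO array 1 and DMSO array 2 (0.0518 to 0.108) and for Tgfbr3 without UO126 array 3 (0.0508). Without UO126 array 3, DMSO array 2 or DMSO array 3 the number higher was 2, and the number lower was 1 without UO126 array 2 or DMSO array 1 and 0 without UO126 array 3. Among 16 genes of the VEGF, endothelin and natriuretic peptide systems, Npr3 rose, the endothelin receptor Ednrb was at 7.72, 7.87 and 7.83 in the UO126 arrays and 8.98, 8.60 and 8.79 in the DMSO arrays and fell by 0.99 ± 0.10 (adjusted p = 5.02e-05), and Vegfd fell by 0.40 ± 0.09 (adjusted p = 0.030), a call lost without any 1 of the 6 arrays (0.0589 to 0.136). These are 1 gene higher and 2 lower, against 1.14% and 0.792% over all probe sets. Of 12 FGF ligands and receptors tested, Fgfr3 and the decoy receptor Fgfrl1 (0.55 ± 0.10, adjusted p = 0.00531) were higher and 0 lower, against 1.14% and 0.792% over all probe sets.

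Genes that build and degrade matrix had calls in both directions, to be read against 1.14% higher and 0.792% lower over all probe sets. The glycosaminoglycan list had 3 of 22 genes higher and 1 lower. Among proteases and inhibitors 2 of 20 were higher and 3 lower, and among other collagens 2 of 19 higher and 1 lower. Of 22 glycosaminoglycan synthesis genes, the chondroitin sulfotransferase Chst11 rose by 0.65 ± 0.10 (adjusted p = 0.00124), the sulfate transporter Slc26a2 by 0.62 ± 0.12 (adjusted p = 0.0107) and the sulfate donor synthase Papss2 by 0.52 ± 0.11 (adjusted p = 0.014), while the hyaluronan synthase Has2 fell by 0.63 ± 0.13 (adjusted p = 0.0178). The calls were lost for Slc26a2 without UO126 array 3 (0.0614), for Papss2 without any 1 of UO126 array 3, DMSO array 2 and DMSO array 3 (0.0615 to 0.094) and for Has2 without any 1 of UO126 array 2, UO126 array 3 and DMSO array 1 (0.0523 to 0.0836). Of 20 extracellular proteases and inhibitors, Plat, tissue plasminogen activator, was at 8.27, 8.27 and 8.48 in the UO126 arrays and 9.24, 9.21 and 9.25 in the DMSO arrays and fell by 0.89 ± 0.09 (adjusted p = 3.85e-05), and the stromelysin Mmp3 fell by 0.92 ± 0.21 (adjusted p = 0.0257) and the metalloproteinase inhibitor Timp1 by 0.62 ± 0.14 (adjusted p = 0.0311). The proteoglycanase gene Adamts9 rose by 0.65 ± 0.09 (adjusted p = 0.000523), although its other probe set had the opposite sign, not called, and a second protease was also higher, Adamts12. Mmp3 was lost without any 1 of UO126 array 2, UO126 array 3 and DMSO array 1 (0.0881 to 0.125) and Timp1 without any 1 of UO126 array 1, UO126 array 2, DMSO array 1, DMSO array 2 and DMSO array 3 (0.0563 to 0.137). Of 19 other collagens, Col8a1 rose by 0.76 ± 0.14 and Col27a1 by 0.59 ± 0.12, and Col18a1 fell by 0.60 ± 0.09 (adjusted p = 0.000867). Col8a1 was lost without any 1 of DMSO array 2 and DMSO array 3 (0.0513 to 0.0538) and Col27a1 without UO126 array 3 (0.0638).

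Stress and metabolic lists held few calls, to be read against 1.14% higher and 0.792% lower over all probe sets. UO126 can act on the aryl hydrocarbon receptor in other cells, so its targets were listed, and 0 of 6 tested were called by limma (1 at an unadjusted p below 0.05). Cyp1a1 was at 6.19, 6.26 and 6.16 in the UO126 arrays and 6.10, 6.30 and 6.04 in the DMSO arrays (difference 0.06 ± 0.13, 95% interval -0.22 to 0.34) and Cyp1b1 differed by 0.09 ± 0.13 (-0.18 to 0.36). Differences were -0.06 ± 0.09 for Cyp1a2, 0.11 ± 0.20 for the receptor's repressor Ahrr and 0.13 ± 0.10 for Tiparp, and 0.58 ± 0.17 for the quinone reductase Nqo1, which was called with the block (0.00413 against 0.0995). In the NRF2 and metallothionein list, the zinc-binding proteins Mt1 and Mt2 fell by 0.93 ± 0.13 and 0.91 ± 0.10 (adjusted p = 0.000787 and 4.94e-05), and glutathione transferase Gstm1 rose by 0.76 ± 0.10 (adjusted p = 0.00042) and sulfiredoxin, Srxn1, by 0.47 ± 0.10 (adjusted p = 0.0179), the last lost without any 1 of UO126 array 1, UO126 array 3 and DMSO array 2 (0.071 to 0.107) and with 1 of 3 other probe sets of opposite sign. Single members of other lists were called, each without a single-array loss unless given. Lpl, lipoprotein lipase, rose by 0.97 ± 0.12 (adjusted p = 0.000329), the tendon gene Tnmd by 0.98 ± 0.15 (adjusted p = 0.00142), Chac1 of the amino acid response by 0.50 ± 0.10, lost without any 1 of UO126 array 3 and DMSO array 2 (0.0674 to 0.0943), and Bnip3 of the glycolysis list by 0.48 ± 0.10, lost without any 1 of UO126 array 3, DMSO array 2 and DMSO array 3 (0.0826 to 0.11). The fibroblast list also held Twist2, lower by 0.42 ± 0.10 and lost without any 1 of UO126 array 2, UO126 array 3, DMSO array 1, DMSO array 2 and DMSO array 3 (0.0596 to 0.181). Integrin alpha 6, Itga6, fell by 0.80 ± 0.15 (adjusted p = 0.00804), integrin alpha 1, Itga1, rose by 0.46 ± 0.11 and was lost without any 1 of UO126 array 1, UO126 array 3, DMSO array 2 and DMSO array 3 (0.135 to 0.213), and the p53 target Perp fell by 0.40 ± 0.07 (adjusted p = 0.00422). Perp is also on the list of keratinocyte and epithelial markers. Of its 9 genes tested 1 was lower and 0 higher, 6 had a negative difference, and 2 were lower with the block, against 1.9% over all probe sets. The part of epithelial cells in these values was not tested. The prostacyclin synthase Ptgis rose by 0.47 ± 0.11 and was lost without any 1 of UO126 array 1, UO126 array 2, UO126 array 3, DMSO array 2 and DMSO array 3 (0.0537 to 0.164), whereas Gbp2 of the interferon list fell by 0.42 ± 0.09, lost without any 1 of UO126 array 1, UO126 array 3, DMSO array 1, DMSO array 2 and DMSO array 3 (0.0575 to 0.145), and Bcl6 of the FOXO list by 0.56 ± 0.12, lost without any 1 of UO126 array 1, UO126 array 3, DMSO array 1 and DMSO array 3 (0.0603 to 0.15). By limma none of 18 sterol synthesis genes (1 unadjusted), 14 ribosomal proteins (0), 9 osteoclast markers (2), 7 endothelial markers (0), 7 neuronal and Schwann cell markers (1) or 2 erythroid markers (0) passed, and with the block the neuronal marker Stmn2 was lower (-0.59 ± 0.37, 0.0217 against 0.713).

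**Figure D4:**
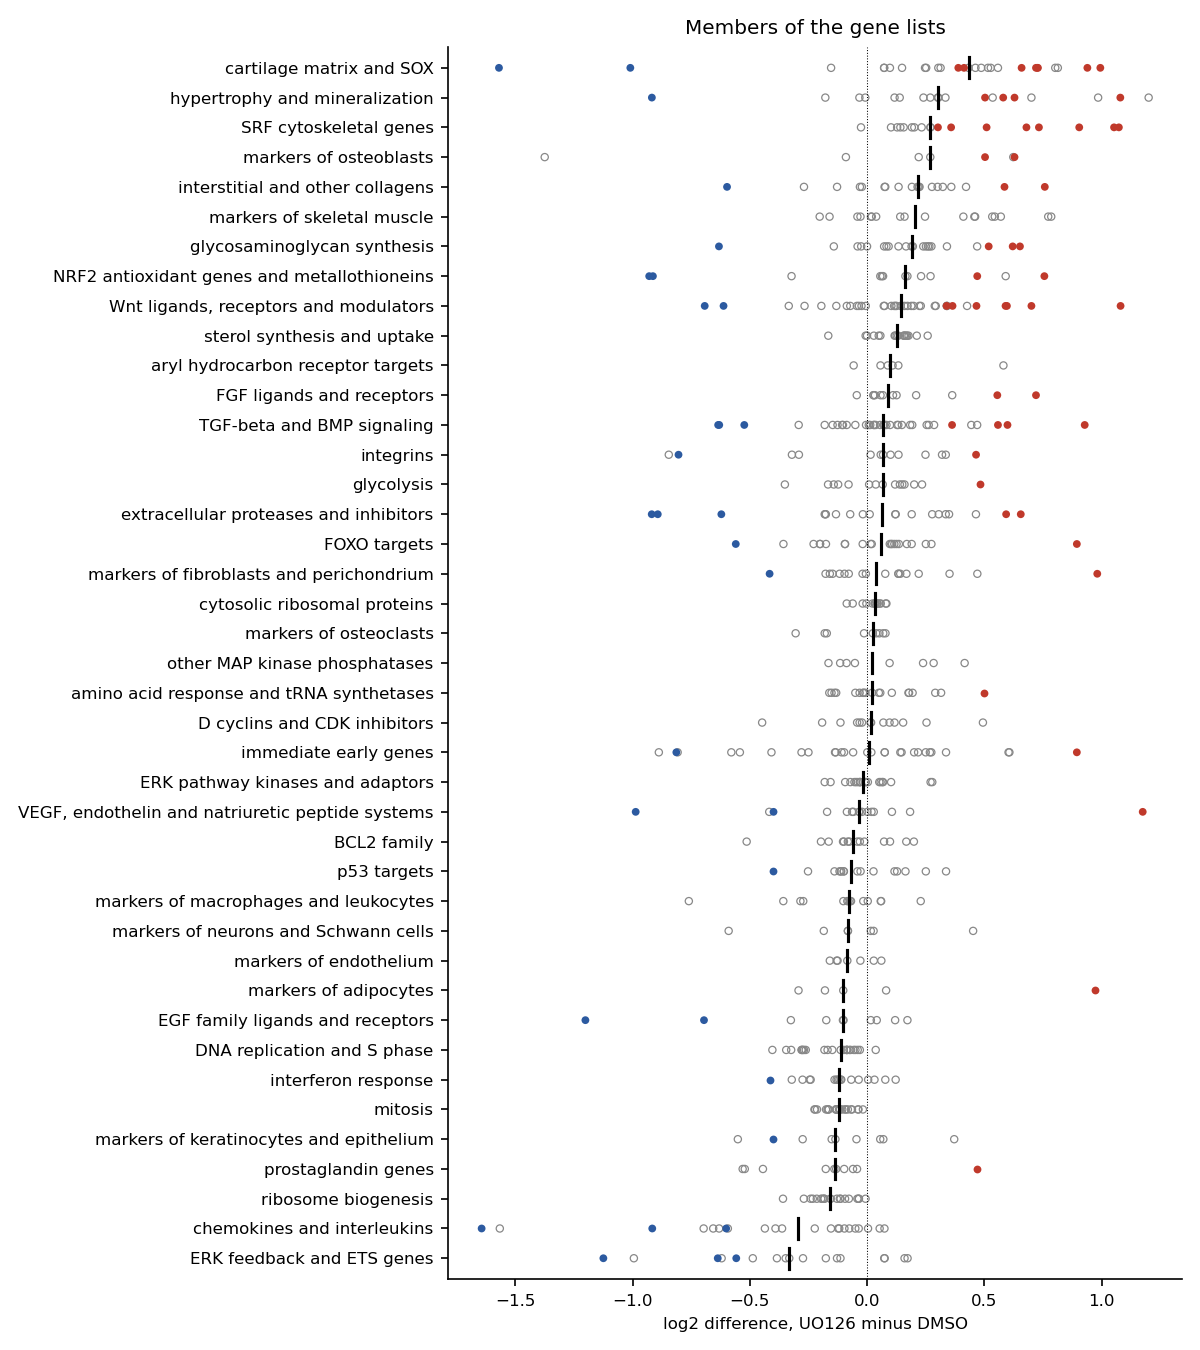
Each row is a gene list with at least 5 members tested, and each circle a gene, placed by its log2 difference between UO126 and DMSO. Filled circles passed an adjusted p of 0.05, red for higher and blue for lower, and black ticks are list medians, from -0.33 for ERK feedback and ETS genes to 0.43 for cartilage matrix genes.

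UO126 was also compared directly with LY and SB90, without the DMSO arrays entering the difference. Against LY, 569 probe sets were higher in UO126 (1.65% of 34496 tested) and 1376 lower (3.99%). Against SB90, 926 were higher (2.68% of 34492) and 874 lower (2.53%). Of the 17 ERK feedback and ETS genes, 5 were lower in UO126 than in LY (Dusp6, Spry2, Errfi1, Etv5 and Phlda1) and 8 lower than in SB90, these 5 with Dusp4, Spred2 and Il17rd, and none was higher in either. The list median against DMSO was itself positive in LY (0.122) and in SB90 (0.126). Il17rd in UO126 lay 0.17 above DMSO, so its lower value than in SB90 is not a fall from DMSO. The part of LY and SB90 in the other differences was not tested. Dusp6 was at 11.25, 10.96 and 9.96 in LY and 10.93, 10.49 and 10.01 in SB90, all above the highest UO126 array, and UO126 differed by -1.51 ± 0.28, adjusted p = 0.00407 from LY and by -1.26 ± 0.28, adjusted p = 0.011 from SB90. Errfi1 was at 11.43, 10.94 and 10.42 in LY and 10.95, 10.78 and 10.29 in SB90, with differences of -1.33 ± 0.20, adjusted p = 0.000835 and -1.08 ± 0.20, adjusted p = 0.00281. Without UO126 array 3 or SB90 array 1, 5 rather than 8 genes were lower than in SB90.

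Genes named for their difference from DMSO were chosen with the same UO126 arrays that enter these contrasts, so their values here are a description. Ereg and Hbegf were lower in UO126 than with either inhibitor. Ereg was lower in UO126 than in LY by 1.23 and than in SB90 by 1.08 (adjusted p = 0.000703 and 0.00113), and Hbegf by 0.68 and 0.67 (0.00441 and 0.00371). Fosl1 was not separated from LY, whose arrays read 8.52, 8.33 and 8.23 (difference 0.18 ± 0.11, adjusted p = 0.361), but was lower than in SB90 (-0.54 ± 0.11, adjusted p = 0.00514). Of the 28 immediate early genes, 7 were lower and 0 higher than in LY, against 3.99% and 1.65% over all probe sets. Their median difference from LY was -0.525, and the median of LY itself against DMSO was 0.513. Against SB90, 2 were lower and 1 higher (2.53% and 2.68%). Of the 12 largest increases, 9 were called higher in UO126 than in LY and 11 higher than in SB90, against 1.65% and 2.68% over all probe sets. Among those not called, Nnat, at 8.79, 8.53 and 8.73 in LY, and Npr3, at 9.56, 9.22 and 9.14, differed from LY by -0.02 ± 0.14, adjusted p = 0.953 and -0.02 ± 0.14, adjusted p = 0.942. Of the 12 largest decreases, 9 were called lower in UO126 than in LY and 10 lower than in SB90, against 3.99% and 2.53% over all probe sets. Among those not called, Krt18 was at 7.38, 7.35 and 7.30 in LY, with a difference of 0.07 ± 0.10, adjusted p = 0.712, and Tnfsf11 at 6.71, 5.87 and 6.18 in SB90, with a difference of -0.26 ± 0.23, adjusted p = 0.742. Of 27 cartilage matrix genes, 1 was higher and 1 lower than in LY, and 18 higher and 1 lower than in SB90. The shares over all probe sets, also for the serum response factor list below, were 1.65% higher and 3.99% lower than in LY. For SB90 they were 2.68% and 2.53%. For the serum response factor list, 3 of 18 genes were higher and 0 lower than in LY. The list had 8 positive and 10 negative differences from LY, with a median of -0.0271. The median difference from DMSO over the list was 0.267 for LY and 0.27 for UO126. Against SB90, 7 genes were higher and 0 lower. Cnn1 differed by 0.89 ± 0.09, adjusted p = 3.35e-05 from LY and by 1.76 ± 0.09, adjusted p = 1.3e-08 from SB90.

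**Figure D5:**
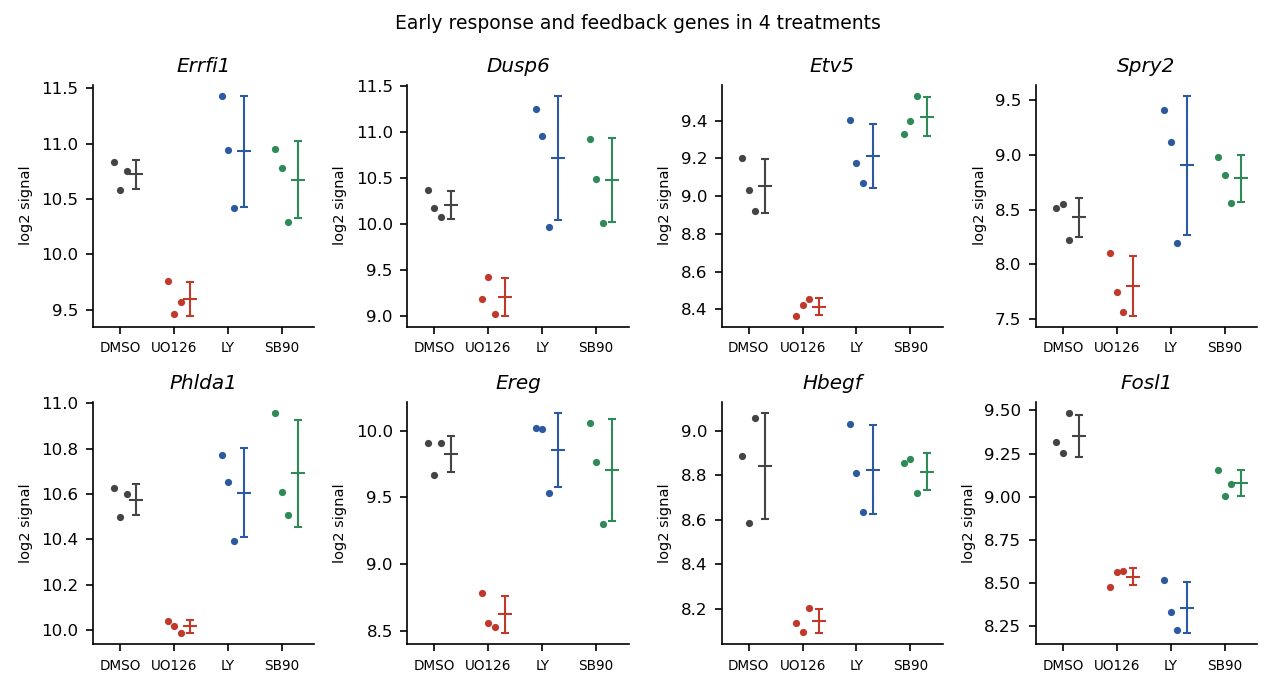
Log2 signals (vertical axes, each gene on its own scale) of 8 genes in the 3 arrays of DMSO, UO126, LY and SB90, with the mean and SD of each group to the right of its dots. UO126 is the lowest group for every gene except Fosl1, for which LY is lower.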

How the data were processed

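Total RNA of the 6 UO126 and DMSO samples, and of 9 further samples, was hybridized to Affymetrix mouse genome arrays. The deposited log2 signals, 1 per probe set and array, had been normalized between arrays by the authors. The methods name GC-RMA for the deposit and RMAExpress for a gene set analysis, and which of them made the table is not settled. GC-RMA shrinks dim signals more strongly, which would change differences of low probe sets. Values lay between 3.02 and 14.4, and 3 arrays per treatment limit the precision. Samples were grouped by their titles.

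Removing 64 controls from the array's 45101 probe sets left 45037, of which 34945 had a single gene symbol (18193 genes in all), 932 more than 1 symbol and 9160 no symbol. The RefSeq table held 34741 of the gene identifiers and changed 0 symbols. Levels of different probe sets were not compared.

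Using limma 3.58.1 in R 4.3.3, 1 mean per treatment was fitted to all 15 arrays (10 residual degrees of freedom), with empirical Bayes moderation, a signal filter of 50 in either group of a comparison and Benjamini-Hochberg adjustment over the probe sets tested. Tests are two-sided. An exact permutation test of 3 against 3 arrays cannot go below p = 0.1 and was not used. The fit was tested on simulated data. UO126 was compared with DMSO and directly with LY and SB90. Whether same-numbered arrays pair rests on the correlation of their deviations alone, each over 0.1.

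A gene of a list was read by the brightest of its probe sets, by the mean of all 15 arrays. Named are the 12 largest increases and decreases of called, non-overlapping single-gene probe sets, all members of the ERK feedback, EGF and aryl hydrocarbon receptor lists, and up to 4 called members of each of the other lists, or the 2 largest differences where none was called. Many names outside this rule are marked, but not all. Col2a1, Sox9, Sox5, Sox6, Mmp13, Ibsp, Myod1, Myog and Adamts12 are among those outside it without a mark. The members and the 42 lists were chosen with earlier results of these data known.

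The alternatives were the replicate block, the 6 arrays alone, no Trichostatin A arrays, no filter, a filter at 100 or on the mean of all arrays, quantile normalization, median centring, the mean of a gene's probe sets, a robust prior with a trend, and leaving out each array in turn. Leaving out a replicate number in every treatment was added after the values were seen. Some items are not reported here.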

Additional observations from a re-analysis of the deposited data

How the results depend on the processing

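None of the 140 probe sets chosen by the rule for names changed direction where called. List medians changed sign under at least 1 alternative in 11 of the 42 lists, with medians of at most 0.0979 in size, the immediate early genes among them. With the replicate block, which pairs same-numbered arrays, 848 probe sets were higher and 659 lower, 6 ERK feedback and ETS genes were lower in UO126 than in DMSO and 9 lower than in LY, and of the 140 chosen by the rule 13 more were called and 0 lost, which leaves out genes named after their values were seen. A fit of the 6 arrays alone gave 169 higher and 149 lower, losing 23 of the 82 named calls, and quantile normalization gave 455 lower. Leaving out 1 array gave 196 to 456 higher, 156 to 235 lower, 63 to 78 called with at least 2-fold, and 2 or 3 ERK feedback genes. The lowest counts came without UO126 array 3 for higher probe sets and without UO126 array 2 for lower ones (156), and higher counts also fell to 230 and 234 without DMSO arrays 2 and 3, while 174 were lower without UO126 array 3. ERK feedback genes lower in UO126 than in LY were 4 to 7, the highest number without LY array 3, and those lower than in SB90 were 5 to 9. Without replicate 1, 2 or 3 in every treatment, chosen after seeing the data, 247, 51 and 93 probe sets were higher and 169, 52 and 98 lower. Without replicate 2 everywhere, 0 ERK feedback genes were lower than in DMSO, 0 lower than in LY and 2 lower than in SB90, against 3, 5 and 8. The cartilage list had 13 genes higher without the Trichostatin A arrays, and the hypertrophy list 1 in the 6 arrays alone. The causes of these shifts, the smaller number of arrays among them, were not tested. Of the 82 named calls 54 held without any single array and 27 under every alternative run. The dose and the length of treatment are unsettled, the table holds no detection calls, and the signal filter keeps dim probe sets whose differences may be compressed.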
